A study of Homo sapiens with 20 samples.

Results

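NOTCH receptors are single-pass membrane proteins that are cut by ADAM proteases and γ-secretase after they bind a DLL or JAG ligand on a neighbouring cell. The released intracellular part joins the DNA-binding protein RBPJ and MAML coactivators and switches on target genes, among them the HES repressors and the feedback inhibitor NRARP. NOTCH1 drives T cell lineage commitment, and activating NOTCH1 mutations are common in T cell acute lymphoblastic leukemia, the disease from which Jurkat cells derive.

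Here 7 genes of this pathway were examined out of 60719 genes in the expression table, chosen by gene name. They are the receptors NOTCH1, NOTCH2 and NOTCH3, the target genes HES1 and HES4, the feedback inhibitor NRARP, and DTX1, a Deltex E3 ubiquitin ligase that binds the intracellular part of NOTCH. All 7 passed the low-count filter of the test, as did 16327 of the 60719 genes. The sequenced RNA came from Jurkat, an established human line of T cell leukemia (WT), and from its somatic mutant JinB8, which lacks surface CD47 (CD47- cells). Each line gave 10 libraries. One was untreated at 1 h, and 1 library each at 1, 3 and 6 h came from cells on plates coated with anti-CD3 and anti-CD28 (CD3+CD28), from cells on such plates with thrombospondin-1 added (CD3+CD28+TSP1), and from cells given TSP1 alone. All cells of both lines were plated in serum-free HITES medium. The dose of TSP1, a secreted CD47 ligand, was 1 μg/mL, and the coating used 4 μg/mL of anti-CD28. For anti-CD3 the methods of the study give 2 μg/mL and the sample labels 2 mg/mL. The CD47- cells are 1 mutant line, so loss of CD47 and any other difference between the 2 lines cannot be told apart.

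Library totals were 16107921 to 31737616 counts, and expression is given as CPM, the count relative to the library total after scaling by the TMM factors of edgeR. A total of 3 counts, used as the limit of detection, lay between 0.0979 and 0.156 CPM. The CD47- library CD3+CD28+TSP1 3 h stood apart with the smallest total, 16107921, and the largest TMM factor, 1.2, and where a value moved by more than 1.5 times or changed its call when it was left out, that is stated beside the value or in the closing limits. CD47 mRNA was 317 ± 42.1 CPM (SD, n = 10) in WT and 147 ± 12.6 CPM (SD, n = 10) in CD47- cells, with no overlap, a log2 difference of -1.10 ± 0.0784 (SE). All 12 T cell markers examined had more than 3 counts in every library. A B cell list of 5 genes summed to 35.6 to 56.0 CPM in WT and 5.86 to 13.7 CPM in CD47- cells, led by CD79A at 42.2 and 6.75 CPM, with its lowest gene in WT, PAX5, at 0.0742 CPM. A mesenchymal list of 4 genes summed to 1.89 to 6.69 CPM in WT and 7.70 to 12.3 CPM in CD47- cells, and the part of these cell types in the results was not tested. Each condition was sequenced once and the labels do not name separate cultures, so p-values measure only the spread between these libraries, and each SD over 10 libraries also holds what treatment and time add. In such bulk RNA, a smaller share of expressing cells and less RNA per cell cannot be told apart.

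RBPJ recognizes a short DNA word around TGGGAA, and the promoters of the target genes were searched for it to show the sequence through which NOTCH is known to act. RefSeq promoters of build GRCh38.p14, from 250 bases before to 50 bases after the gene start, were found for 6 of the 7 genes, all except DTX1. On both strands, TGGGAA occurred in 24.0% of the 35116 promoters of the table, the longer GTGGGAA, which contains it and was added after the sequences had been seen, in 6.25%, and the longest form CGTGGGAA in 0.826%. HES1 held TGGGAA at -84 and -70 from its start and HES4 at -76, all on the strand of the gene, and in each of these 2 promoters 1 of the words was part of GTGGGAA. The windows of NOTCH1, NOTCH2, NOTCH3 and NRARP did not hold these letters, and CGTGGGAA was in none of the 6 windows. The 100 bases before the start of HES1 (chr3:194136048-194136147, plus strand), the 30 bases around the HES4 word (chr1:1000156-1000185, minus strand) and the 100 bases before the start of NRARP (chr9:137302272-137302371, minus strand) are shown 5′ to 3′ with TGGGAA in capitals. The RefSeq start of HES4 lies 75 bases inside its longest annotated transcript.
HES1: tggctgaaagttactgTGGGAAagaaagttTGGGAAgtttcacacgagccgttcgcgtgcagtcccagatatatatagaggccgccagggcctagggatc
HES4: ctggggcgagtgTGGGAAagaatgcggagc
NRARP: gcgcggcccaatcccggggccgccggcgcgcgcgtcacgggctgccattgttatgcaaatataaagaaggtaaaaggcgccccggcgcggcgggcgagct

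The first comparison asked how the 7 genes differ between CD47- and WT cells over all libraries. HES1, NRARP, DTX1 and NOTCH1 were higher in CD47- cells, NOTCH2 was lower, and NOTCH3 and HES4 did not pass the test. These 5 calls among 7 genes stand beside 40.4% of all 16327 genes called in the same comparison, where 3229 genes were higher and 3367 lower. The median log2 fold change of the 7 genes was 0.78, and that of all genes was -0.01. The edgeR quasi-likelihood test was used, with p-values adjusted over all genes tested. HES1, NRARP and NOTCH2 had ranges that did not overlap between the lines, which was so for 11.5% of all genes.

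**Figure D1:**
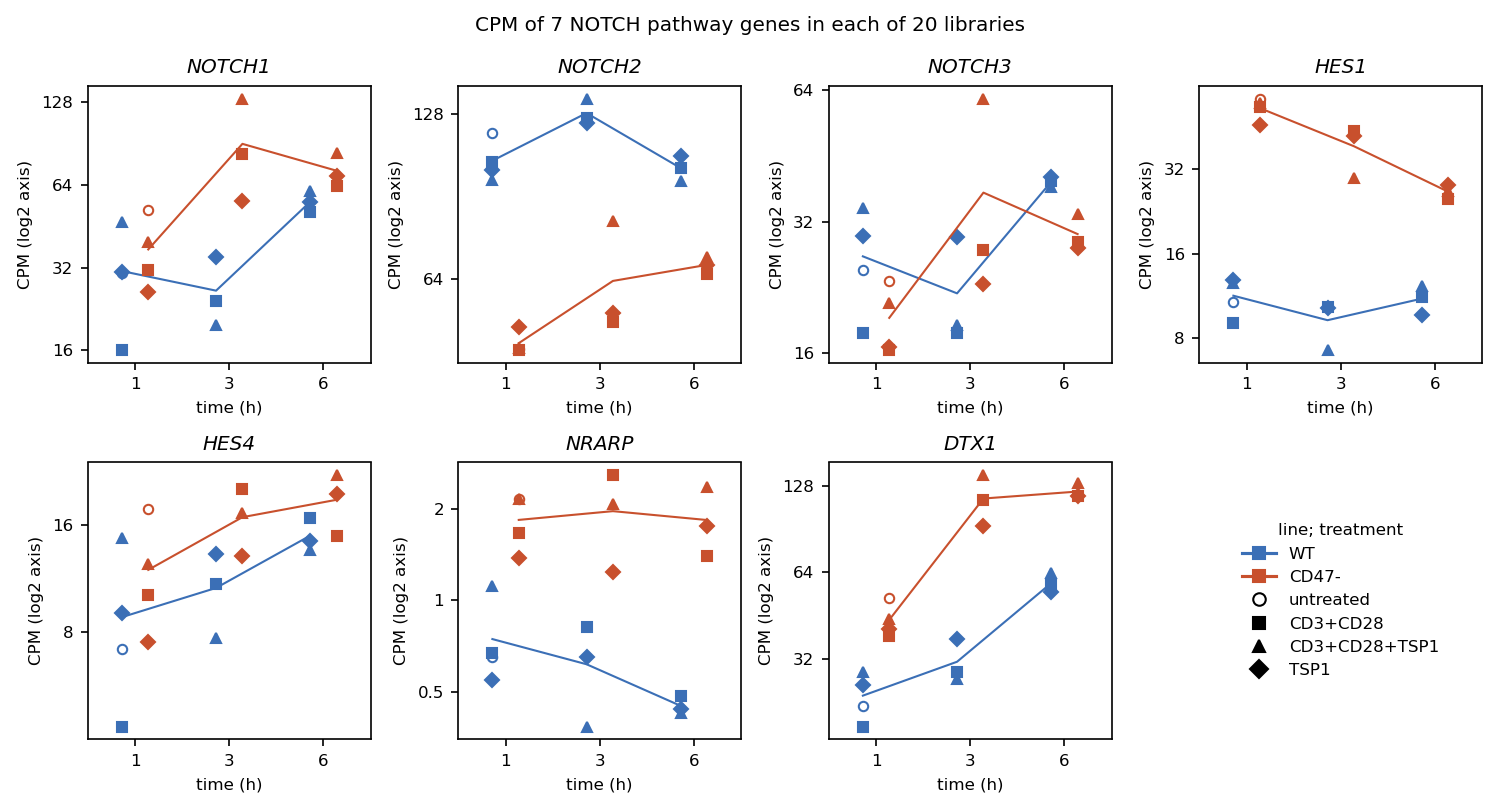
CPM (log2 axis) of each gene in each of the 20 libraries by time point, with WT in blue and CD47- in red, symbols for treatments, and lines through the means of the libraries at each time. HES1 lay at 7.25 to 12.9 CPM in WT and at 25.1 to 57.2 CPM in CD47- cells, falling with time in the CD47- line, and DTX1 rose with time in both lines.

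Among the receptors, NOTCH2 (chr1:119911553-120100779, minus strand) was the one lower in CD47- cells. WT libraries ranged from 96.7 to 136 CPM with a median of 106, and CD47- libraries from 47.6 to 81.6 CPM with a median of 54.6. Every WT library was above every CD47- library, and NOTCH2 was lower in CD47- cells in all 10 pairs matched for treatment and time. The mean was 111 ± 13.7 CPM (SD, n = 10) in WT and 59.1 ± 11.7 CPM (SD, n = 10) in CD47- cells, a log2 difference of -0.91 ± 0.102 (SE, adjusted p = 1.82e-07). NOTCH2 shares much of its sequence with the NOTCH2NL genes, partial copies on the same chromosome, and with their counts added to it the difference was -0.81 (adjusted p = 1.27e-07). The difference in NOTCH2 was smaller at 6 h than earlier, with a mean log2 difference within pairs of -1.09 at 1 h, -1.03 at 3 h and -0.58 at 6 h.

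NOTCH1 (chr9:136494433-136546048, minus strand) had a WT range of 16.1 to 60.5 CPM with a median of 33.0, and a CD47- range of 26.1 to 132 CPM with a median of 59.7. The ranges overlapped widely and NOTCH1 was higher in CD47- cells in 8 of 10 pairs. The log2 difference was 0.78 ± 0.273 (SE, adjusted p = 0.0262). This call depended on the library that stood apart, which held the highest NOTCH1 value of 132 CPM, since without it the difference was 0.62 with an adjusted p of 0.058. It was not called in the 6 activated pairs alone, where the difference was larger (1.005, adjusted p = 0.067), or in the 4 unactivated pairs alone (0.44, adjusted p = 0.365) either. The difference within pairs was largest at 3 h, where the log2 difference within pairs was 0.66 to 2.70 with a mean of 1.70 (SD 1.02, n = 3), against 0.31 (SD 0.633, n = 4) at 1 h and 0.37 (SD 0.0837, n = 3) at 6 h. The 2.70 came from the pair of the library that stood apart, at 132 CPM against 19.9 CPM in WT. Tested at single time points, NOTCH1 gave 0.26 at 1 h (adjusted p = 0.462) and was called at 3 h (1.775, adjusted p = 0.00328) and 6 h (0.38, adjusted p = 0.00267). The 3 h test includes the library that stood apart and was not run without it.

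NOTCH3 (chr19:15159038-15200995, minus strand) had a WT range of 17.8 to 40.4 CPM with a median of 29.6, and a CD47- range of 16.3 to 61.2 CPM with a median of 25.5. It was lower in CD47- cells in 8 of 10 pairs, though the log2 difference over all libraries was -0.06 ± 0.218 (SE, adjusted p = 0.848), an interval of 2 SE from -0.50 to 0.37. Without the library that stood apart it was -0.25 (adjusted p = 0.284). At 6 h the WT values were 39.6, 38.4 and 40.4 CPM and the CD47- values 28.7, 33.4 and 27.8 CPM, which did not overlap, and the test on these 6 libraries gave -0.38 (adjusted p = 0.000644). How many of all genes did not overlap between groups this small was not counted. At 3 h the fold change was 0.77 (adjusted p = 0.139), with a single CD47- value, 61.2 CPM in the library that stood apart, far above the other two at 27.6 and 23.1 CPM. Those other two went in opposite directions from their WT partners at 17.8 and 29.5 CPM, so the higher 3 h value rests on 1 library.

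HES1 (chr3:194136148-194138732, plus strand), a repressor of the bHLH family and a direct NOTCH target, showed the largest difference of the 7 genes between the lines over all libraries, though at 6 h alone that of NRARP (2.045) exceeded that of HES1 (1.275). WT libraries held 7.25 to 12.9 CPM with a median of 10.6, and CD47- libraries 25.1 to 57.2 CPM with a median of 43.1. No library of one line reached the range of the other, and HES1 was higher in CD47- cells in 10 of 10 pairs. The mean was 10.6 ± 1.74 CPM (SD, n = 10) in WT and 40.8 ± 12.5 CPM (SD, n = 10) in CD47- cells, a log2 difference of 1.94 ± 0.161 (SE, adjusted p = 1.46e-09). Within pairs the log2 difference was at least 1.09.

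HES4 (chr1:998962-1000172, minus strand), a related bHLH repressor, was at 4.35 to 16.7 CPM in WT libraries, with a median of 12.1, and at 7.50 to 22.1 CPM in CD47- libraries, with a median of 16.1. It was higher in CD47- cells in 6 of 10 pairs, a log2 difference of 0.47 ± 0.217 (SE, adjusted p = 0.0922). With the 10 matched pairs as a replicate block the fold change was 0.49 and passed (adjusted p = 0.0234). HES4 passed as well without WT CD3+CD28 6 h (0.56, adjusted p = 0.0459) and without CD47- TSP1 1 h (0.55, adjusted p = 0.0383), with a time term (0.47, adjusted p = 0.0233) and in the 3 pairs at 6 h alone (0.35, adjusted p = 0.0356). In those 6 h pairs all 7 genes were called, as were 9867 of all genes.

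NRARP (chr9:137299631-137302271, minus strand), a NOTCH target that in turn limits NOTCH signaling, was the rarest of the 7 mRNAs. WT libraries held 9 to 25 counts of NRARP, 0.384 to 1.12 CPM with a median of 0.598, and CD47- libraries 30 to 64 counts, 1.25 to 2.59 CPM with a median of 1.92. The ranges did not overlap, all values were above the limit of detection, and 10 of 10 pairs were higher in CD47- cells. The log2 difference was 1.61 ± 0.197 (SE, adjusted p = 6.74e-07). The filter of 1 CPM in every library left NRARP untested.

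DTX1 (chr12:113056730-113098028, plus strand), a regulator of NOTCH turnover and itself a NOTCH-responsive gene in lymphocytes, was at 18.5 to 63.6 CPM in WT libraries, with a median of 28.8, and at 38.4 to 140 CPM in CD47- libraries, with a median of 104. The ranges overlapped, since WT values at 6 h exceeded CD47- values at 1 h, but in 10 of 10 matched pairs DTX1 was higher in CD47- cells. The log2 difference was 1.28 ± 0.283 (SE, adjusted p = 0.000844). In the 4 unactivated pairs alone it was 1.14 and missed the threshold (adjusted p = 0.0678).

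**Figure D2:**
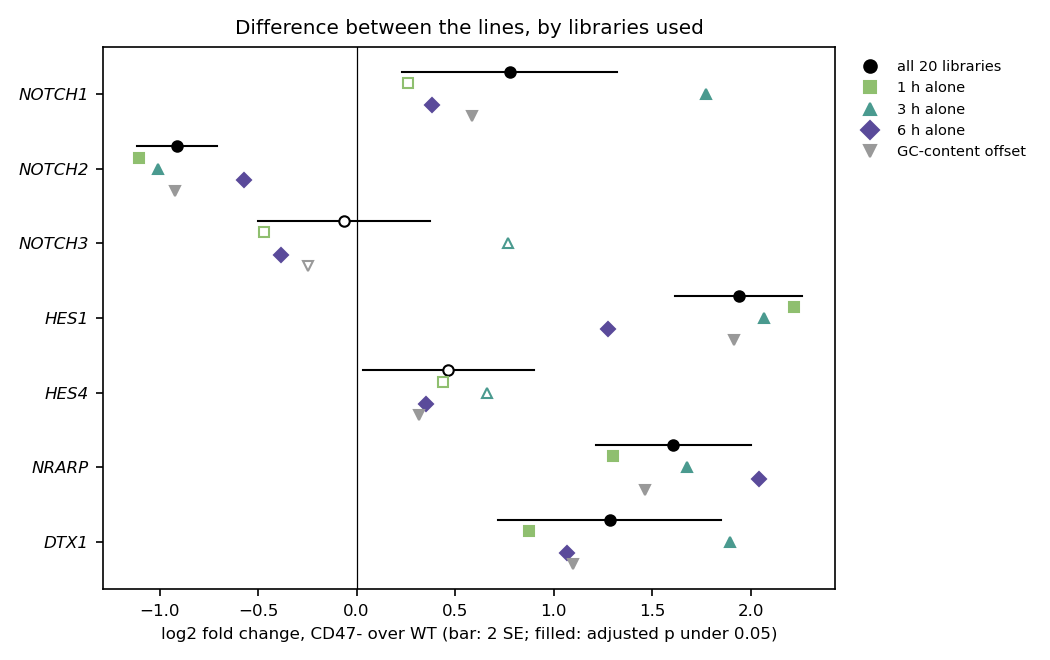
Log2 fold change between the lines (CD47- over WT) for each gene, in all 20 libraries (black, bar of 2 SE), in the pairs of 1 time point alone (colours) and with an offset for GC content (gray), filled where the adjusted p was under 0.05. HES1, NRARP, DTX1 and NOTCH2 were called at every time point, whereas NOTCH3 lay at -0.47 at 1 h, 0.77 at 3 h and -0.38 at 6 h.

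The order of the levels can be compared between genes only per transcript length, and for this isoform counts were divided by isoform length and scaled to the same total in every library. On this scale DTX1 was at 11.6 ± 5.25 (SD, n = 10) in WT, HES4 at 10.4 ± 3.78, NOTCH2 at 9.97 ± 1.88, HES1 at 6.47 ± 1.35, NOTCH3 at 4.62 ± 1.59, NOTCH1 at 4.05 ± 1.66 and NRARP at 0.210 ± 0.0691. In CD47- cells the order was DTX1 at 34.5 ± 17.1, HES1 at 29.7 ± 9.80, HES4 at 17.1 ± 6.03, NOTCH1 at 8.31 ± 5.35, NOTCH2 at 6.39 ± 2.09, NOTCH3 at 5.56 ± 3.57 and NRARP at 0.772 ± 0.234. In both lines each neighbour overlapped the next over its libraries, apart from NRARP, which lay below all others. NOTCH2 was the most abundant receptor mRNA in WT cells, where its lowest library, 7.36, was above the highest of NOTCH3, 6.96, and of NOTCH1, 6.39. In CD47- cells the 3 receptors overlapped, with NOTCH2 from 4.43 to 12, NOTCH1 from 3.41 to 22.0 and NOTCH3 from 2.96 to 15.4 on the per-length scale. This scale was made without TMM factors, and differences between the lines on it depart from those in CPM. The means of NOTCH3 were 4.62 in WT and 5.56 in CD47- cells per length, against 29.1 and 27.9 CPM.

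The lines were then compared in how each gene was divided between its isoforms. A single protein-coding transcript held most counts of NOTCH1, NOTCH2, NOTCH3 and HES1, with shares in WT of 92.6%, 94.7%, 91.4% and 90.1%. The second HES1 transcript, annotated as a retained intron, took 9.89% ± 3.83 (SD, n = 10) in WT and 10.6% ± 2.53 (SD, n = 10) in CD47- cells. HES4 was split, with 41.2% ± 4.32 (SD, n = 10) of its WT counts assigned to a retained-intron transcript and 43.8% ± 7.19 (SD, n = 10) to the longest protein-coding transcript, against 43.0% ± 7.42 (SD, n = 10) and 38.4% ± 4.77 (SD, n = 10) in CD47- cells. For DTX1, the leading protein-coding transcript held 59.7% ± 6.14 (SD, n = 10) in WT and 56.2% ± 3.22 (SD, n = 10) in CD47- cells, and a transcript without an annotated coding sequence 30.2% and 35.1%. Only the transcript that led over all libraries was tested for each gene, which for HES4 was the retained intron, although the protein-coding one led in WT. None of the 6 genes with several isoforms passed. The largest difference among these 6 leading transcripts was in DTX1, at -3.43 percentage points (two-sided permutation test, p = 0.139, adjusted p = 0.808), and no gene had a lower adjusted p. RSEM divides reads between overlapping isoforms by a model, so these shares are estimates.

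The time comparisons asked how the genes changed between 1 h and 6 h within each line, in 1 model of all libraries with separate treatment and time terms in each line. DTX1 and NOTCH1 were higher at 6 h in each line, and HES1 fell in CD47- cells. NOTCH3 was called higher in each line too, but not with an offset for the GC content of transcripts (0.38 in WT, adjusted p = 0.102, and 0.31 in CD47- cells, adjusted p = 0.186). In WT cells 3 of 7 genes were called, all higher, beside 50.5% of all genes, and in CD47- cells 6 of 7, 5 higher and 1 lower, beside 53% of all genes. At 3 h against 1 h, 1 of 7 was called in WT (34.3% of all genes) and 4 of 7 in CD47- cells (38% of all genes). Where time points are said below not to overlap, the share of all genes for which this held was not counted.

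DTX1 had the largest rise in both lines. In WT cells the 4 libraries at 1 h held 21.9, 18.5, 28.7 and 25.9 CPM, the 3 at 3 h held 28.8, 27.2 and 37.5 CPM, and the 3 at 6 h held 57.9, 63.6 and 54.5 CPM. In CD47- cells the values were 51.9, 38.4, 43.9 and 40.5 CPM at 1 h, 115, 140 and 93.0 CPM at 3 h, and 118, 131 and 118 CPM at 6 h. In each line all values at 6 h were above all values at 1 h, and the rise was already present at 3 h in CD47- cells. The log2 change from 1 h to 6 h was 1.28 ± 0.137 (SE, adjusted p = 3.69e-06) in WT and 1.58 ± 0.134 (SE, adjusted p = 3.35e-07) in CD47- cells. From 1 h to 3 h it was 0.36 ± 0.139 (SE, adjusted p = 0.0586) in WT and 1.49 ± 0.134 (SE, adjusted p = 4.34e-06) in CD47- cells. The WT value at 3 h passed the threshold without WT CD3+CD28+TSP1 3 h (0.54, adjusted p = 0.0109) and without any of 4 other libraries, among them the one that stood apart (adjusted p = 0.034), and it was 0.21 (adjusted p = 0.341) without WT TSP1 3 h.

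HES1 moved the other way in CD47- cells. Its CD47- values were 57.2, 53.3, 55.3 and 45.9 CPM at 1 h, 44, 29.8 and 42.2 CPM at 3 h, and 25.1, 26.7 and 28.1 CPM at 6 h. Every value at 6 h was below every value at the earlier times, and the log2 change from 1 h to 6 h was -0.95 ± 0.170 (SE, adjusted p = 0.000304). In WT cells HES1 stayed between 9.03 and 12.9 CPM at 1 h and between 9.67 and 12.3 CPM at 6 h, a log2 change of -0.05 ± 0.185 (SE, adjusted p = 0.834). Whether this change differed between the lines was tested as an interaction, for which 16.6% of all genes were called. HES1 was the single gene of the 7 called there, at -0.90 ± 0.251 (SE, adjusted p = 0.0261). The call was lost when any of 7 libraries was left out, with adjusted p-values up to 0.105 (log2 difference -0.77) without WT CD3+CD28+TSP1 6 h, and it held in the other 13 cases. HES1 at 3 h was not called, with a change of -0.42 ± 0.168 (SE, adjusted p = 0.0629). This change was -0.21 (adjusted p = 0.309) without the library that stood apart, and it passed with DESeq2 (adjusted p = 0.0415) and limma voom (adjusted p = 0.0336).

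NOTCH2 showed the reverse course to HES1 in CD47- cells. It was at 47.9, 47.6, 48.1 and 52.4 CPM at 1 h and at 65.5, 70.4 and 68.1 CPM at 6 h, without overlap, a log2 change of 0.46 ± 0.107 (SE, adjusted p = 0.00248). In WT cells NOTCH2 was highest at 3 h, with 126, 136 and 123 CPM against 96.9 to 118 CPM at 1 h and 96.7 to 107 CPM at 6 h. Its change from 1 h to 3 h was 0.35 ± 0.105 in WT (SE, adjusted p = 0.0198) and 0.35 ± 0.108 in CD47- cells (SE, adjusted p = 0.0219). The WT call was lost without any of 3 WT libraries, CD3+CD28+TSP1 1 h, TSP1 1 h and CD3+CD28+TSP1 3 h (adjusted p up to 0.129), and the CD47- call without CD3+CD28+TSP1 at 1 h or 3 h, where it fell to 0.16. In a fit of the CD47- libraries alone that call was lost too, at a like size (0.37, adjusted p = 0.0515). In the interaction the value of NOTCH2 was 0.44 ± 0.150 (SE, adjusted p = 0.0593), and it passed without the library that stood apart (0.45, adjusted p = 0.00161).

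NOTCH1 and NOTCH3 both rose. NOTCH1 held 30.5, 16.1, 46.9 and 30.9 CPM at 1 h and 50.8, 60.5 and 55.2 CPM at 6 h in WT, and 51.7, 31.5, 39.7 and 26.1 CPM at 1 h and 63.6, 83.6 and 68.7 CPM at 6 h in CD47- cells. The groups did not overlap in either line, and the log2 changes were 0.89 ± 0.255 (SE, adjusted p = 0.00982) and 1.17 ± 0.252 (SE, adjusted p = 0.0014). NOTCH3 rose by 0.57 ± 0.220 (SE, adjusted p = 0.0439) in WT and 0.75 ± 0.224 (SE, adjusted p = 0.0115) in CD47- cells. The WT call of NOTCH3 was lost on quantile-normalized values in limma (0.48, adjusted p = 0.0789) and with upper-quartile factors (0.55, adjusted p = 0.0628). At 3 h both were higher than at 1 h in CD47- cells, by 1.42 ± 0.253 for NOTCH1 (SE, adjusted p = 0.000713) and 0.97 ± 0.225 for NOTCH3 (SE, adjusted p = 0.00432), or 0.62 for NOTCH3 without the library that stood apart (adjusted p = 0.0205). The WT calls at 6 h depended on single libraries, since leaving out WT CD3+CD28 1 h, WT TSP1 1 h or WT CD3+CD28 6 h ended both, with NOTCH1 down to 0.56 and NOTCH3 down to 0.34 (against 1.33 and 0.82 without WT CD3+CD28+TSP1 1 h), and any of 5 further libraries ended that of NOTCH3. In CD47- cells the NOTCH3 call at 6 h was lost without CD3+CD28+TSP1 1 h, CD3+CD28 6 h or TSP1 6 h (adjusted p up to 0.0651).

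HES4 was at 7.17, 4.35, 14.7 and 9.08 CPM at 1 h and 16.7, 13.6 and 14.5 CPM at 6 h in WT, and at 17.8, 10.1, 12.5 and 7.50 CPM at 1 h and 14.9, 22.1 and 19.5 CPM at 6 h in CD47- cells. The time points overlapped in both lines. The log2 change to 6 h was 0.71 ± 0.318 (SE, adjusted p = 0.0787) in WT and 0.93 ± 0.311 (SE, adjusted p = 0.0216) in CD47- cells, where the call was lost without any of 4 libraries (adjusted p up to 0.113). In WT it was 0.25 (adjusted p = 0.482) without CD3+CD28 1 h and 1.302 (adjusted p = 0.00197) without CD3+CD28+TSP1 1 h. The HES4 change to 3 h in CD47- cells was 0.76 ± 0.312 (SE, adjusted p = 0.0703). It passed in a fit of the CD47- libraries alone (0.79, adjusted p = 0.0139) and, at a like size, without the low-count filter (0.76, adjusted p = 5.51e-07). Leaving out WT CD3+CD28 1 h, WT CD3+CD28+TSP1 1 h or WT CD3+CD28+TSP1 3 h also let it pass (adjusted p up to 0.0408). The fit without the low-count filter also lowered the adjusted p of NOTCH1 at 3 h in CD47- cells, from 0.000713 to 5.49e-42. NRARP was not called at any time. In WT it was at 0.546 to 1.12 CPM at 1 h and 0.424 to 0.483 CPM at 6 h, without overlap, a log2 difference of -0.78 ± 0.392 (SE, adjusted p = 0.112) that was -0.28 without WT CD3+CD28+TSP1 1 h. In CD47- cells it was at 1.39 to 2.16 CPM at 1 h and 1.41 to 2.36 CPM at 6 h.

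**Figure D3:**
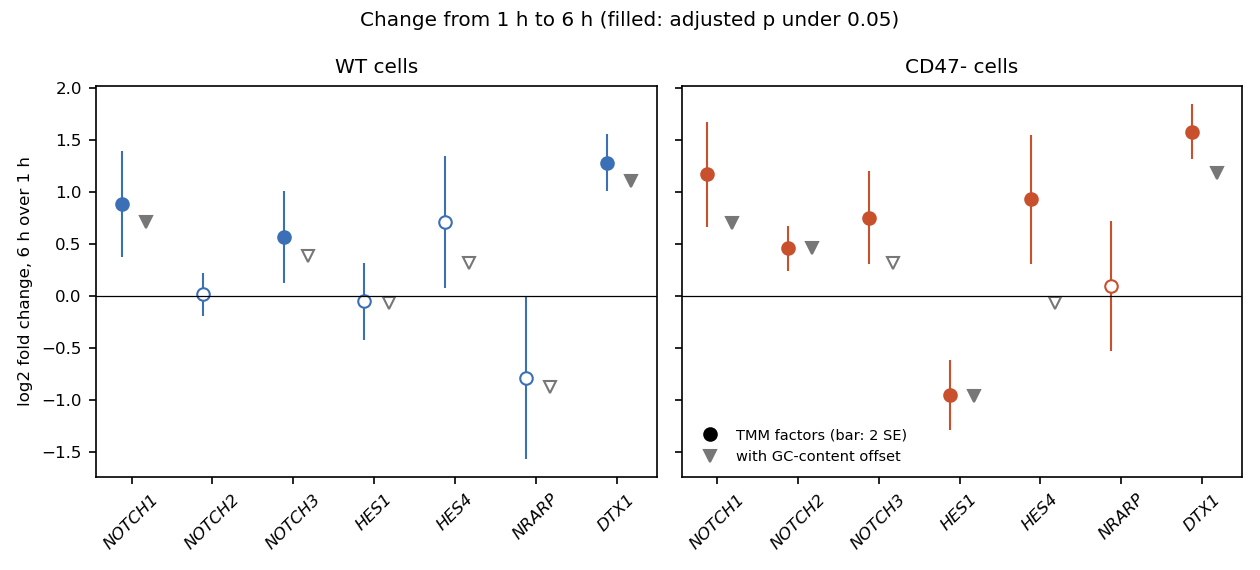
Log2 change from 1 h to 6 h in WT (left) and CD47- cells (right), with bars of 2 SE, filled where the adjusted p was under 0.05, and gray triangles for the same change with an offset for GC content, where it was examined. DTX1 and NOTCH1 rose in both lines under either scaling, HES1 fell in CD47- cells by 0.95, and the HES4 change in CD47- cells went from 0.93 to -0.07 with the offset.

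The rises of NOTCH1, NOTCH3, HES4 and DTX1 went along with a property of the libraries. These 4 mRNAs are rich in G and C, at 63.5%, 63.0%, 74.1% and 62.2% of their transcripts, against a median of 48.2% over the genes tested, whereas NOTCH2 is at 49.5%, HES1 at 50.2% and NRARP at 59.2%. For each library, the median deviation of the 1631 most GC-rich genes from their means was taken (log2 scale, GC of at least 60.8%). The median deviation of all genes tested in that library was subtracted from it. Its range was -0.338 to 0.106 in WT and -0.307 to 0.266 in CD47- cells, and it averaged -0.150, -0.101 and 0.055 at 1, 3 and 6 h in WT and -0.098, 0.182 and 0.177 in CD47- cells. After subtraction of the mean of each line, Pearson's r with this deviation over the 20 libraries was 0.92 for HES4, 0.89 for NOTCH1, 0.82 for DTX1, 0.80 for NOTCH3, 0.37 for NRARP, 0.24 for NOTCH2 and -0.23 for HES1. These are descriptions, since libraries share time points and treatments and the same counts enter the deviation.

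With an offset for the GC curve of each library, an alternative added after the data had been seen, the line differences of HES1 (1.92), NRARP (1.46), DTX1 (1.10), NOTCH2 (-0.92) and NOTCH1 (0.59, adjusted p = 0.0216) remained called, and HES4 passed at 0.32 (adjusted p = 0.0211). The changes to 6 h of DTX1 (1.11 in WT, 1.19 in CD47- cells), NOTCH1 (0.71 in each line) and, in CD47- cells, HES1 (-0.96) and NOTCH2 (0.46) were called too. NOTCH3 at 6 h was no longer called in either line. At 3 h in CD47- cells NOTCH3 stayed called at 0.55 (adjusted p = 0.0366, against 0.97 without the offset). NOTCH1 there was 0.97 (adjusted p = 0.000865, against 1.42). HES4 turned in CD47- cells, from 0.93 to -0.07 at 6 h (adjusted p = 0.69) and from 0.76 (adjusted p = 0.0703) to -0.54 at 3 h (adjusted p = 0.00494). In WT cells its change to 6 h went from 0.71 to 0.32 (adjusted p = 0.0522). The HES1 interaction was -0.89 (adjusted p = 0.0345) and that of NOTCH2 passed at 0.46 (adjusted p = 0.0337).

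**Figure D4:**
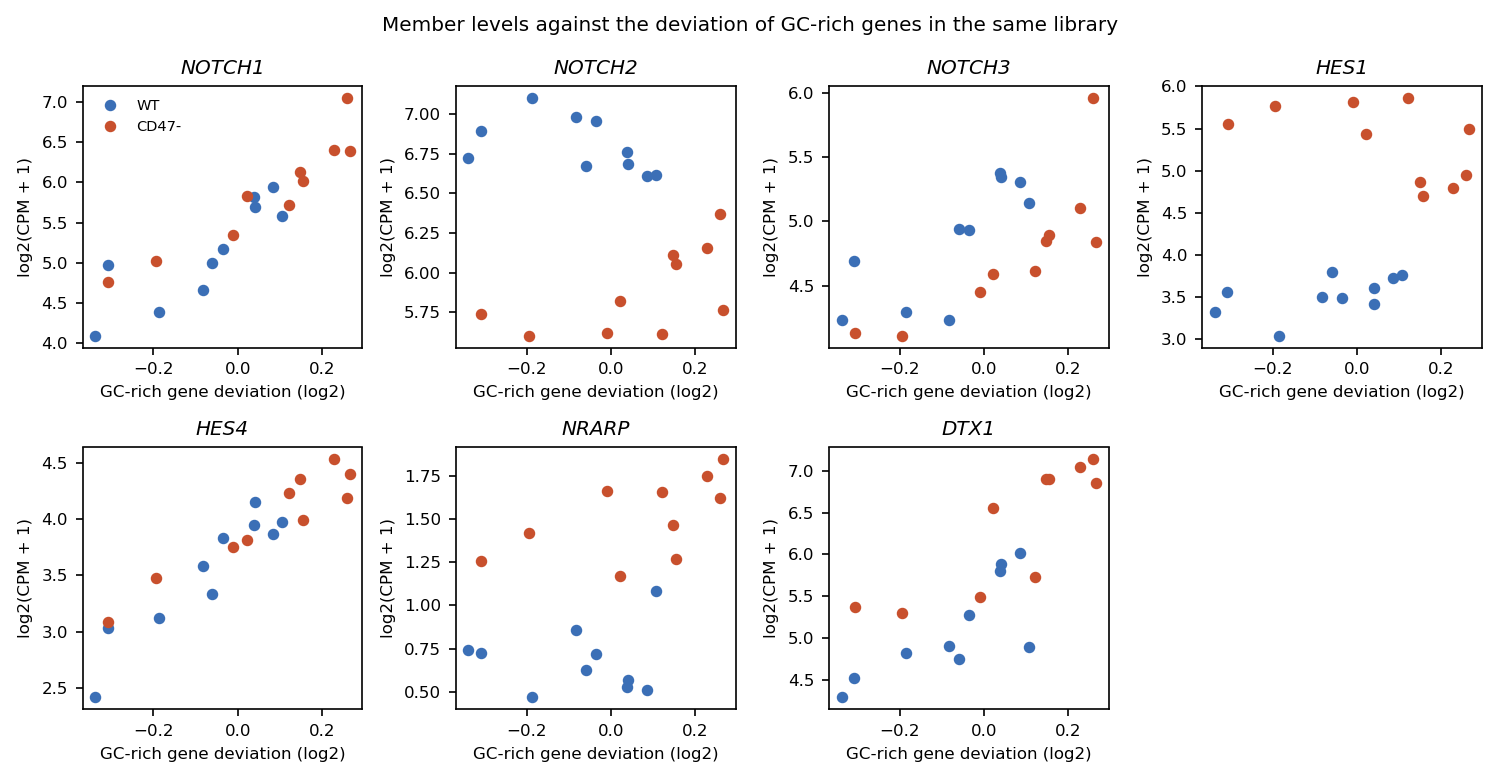
Level of each gene, log2(CPM + 1), against the median log2 deviation of GC-rich genes less that of all genes tested in the same library. WT is in blue and CD47- in red, 1 point per library. NOTCH1, HES4, NOTCH3 and DTX1 rose with the deviation (r of 0.89, 0.92, 0.80 and 0.82 within lines), and HES1 stayed apart by line across its range.

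The treatment comparisons asked whether engagement of CD3 and CD28 or the addition of TSP1 moved these genes, in libraries matched for time. None of the 7 genes was called in any of the 4 comparisons. For CD3+CD28+TSP1 against TSP1 the edgeR test called 0.0919% of all genes in WT, with 816 genes at an unadjusted p under 0.05, and 0% in CD47- cells, with 2636 at an unadjusted p under 0.05. For CD3+CD28+TSP1 against CD3+CD28 it called 0% in each line, with 366 genes in WT and 1771 in CD47- cells at an unadjusted p under 0.05. DESeq2 called none of the 7 genes in these comparisons either. Without the low-count filter edgeR called NOTCH1 and NOTCH3 against TSP1 in CD47- cells, NOTCH1 against CD3+CD28 in WT cells, and 2 of the 7 genes, NOTCH3 among them, against CD3+CD28 in CD47- cells. Fold changes in that fit were close to those with the filter, while many adjusted p-values were far lower, in the time comparisons too. NOTCH3 against CD3+CD28 in CD47- cells went from 0.61 (adjusted p = 0.459) to 0.59 (adjusted p = 5.71e-05). For NOTCH1 at 6 h in WT the adjusted p went from 0.00982 to 2.16e-16. The cause was not tested.

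In CD47- cells, NOTCH1 held 39.7, 132 and 83.6 CPM at 1, 3 and 6 h with CD3+CD28+TSP1, 26.1, 55.7 and 68.7 CPM with TSP1 alone, and 31.5, 83.0 and 63.6 CPM with CD3+CD28. Of the 3 treatments CD3+CD28+TSP1 had the highest value at each time. The log2 difference from TSP1 alone was 0.70 ± 0.250 (SE, adjusted p = 0.283). NOTCH3 was likewise highest with CD3+CD28+TSP1, at 20.9, 61.2 and 33.4 CPM, and differed from TSP1 alone by 0.69 ± 0.223 (SE, adjusted p = 0.283) and from CD3+CD28 by 0.61 ± 0.222 (SE, adjusted p = 0.459). Without the 3 h library that stood apart these differences of NOTCH3 were 0.35 (adjusted p = 0.571) and 0.25 (adjusted p = 1), and with the GC offset the first was 0.45 (adjusted p = 0.586), as was that of NOTCH1. NRARP differed from TSP1 alone by 0.59 ± 0.313 (SE, adjusted p = 0.347), or by 0.39 without CD47- TSP1 3 h. In WT cells NOTCH1 differed by 0.52 ± 0.260 (SE, adjusted p = 1) between CD3+CD28+TSP1 and CD3+CD28, and the other genes by less. That of NOTCH1 was 0.11 without WT CD3+CD28+TSP1 1 h and 0.85 without WT CD3+CD28+TSP1 3 h. HES1 differed by between -0.13 and 0.05 in the 4 comparisons, with SE of at most 0.188.

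At 1 h each treated library could be set beside a single untreated one, without a test. In WT cells CD3+CD28 was lower than untreated by a log2 difference of -0.90 for NOTCH1, -0.66 for HES4 and -0.46 for NOTCH3, whereas CD3+CD28+TSP1 was higher by 0.98 for HES4, 0.61 for NOTCH1 and 0.49 for NRARP. The NRARP value rests on 13 against 25 counts. In CD47- cells all 3 treated libraries were lower than the untreated one in 5 of the 7 genes, NOTCH1, NOTCH3, HES1, HES4 and DTX1. All 3 were set beside the same untreated library, so they are not separate observations. The share of all genes lower in all 3 was not counted. HES4 and NOTCH1 were lower by -0.78 and -0.71 with CD3+CD28, -0.50 and -0.38 with CD3+CD28+TSP1, and -1.19 and -0.97 with TSP1 alone, and HES1 by -0.10, -0.05 and -0.32. NRARP differed by 0.01 with CD3+CD28+TSP1. The deviation of GC-rich genes was -0.308 in the WT untreated library, -0.338 with CD3+CD28, 0.106 with CD3+CD28+TSP1 and -0.060 with TSP1. In the CD47- untreated library it was 0.121, with CD3+CD28 -0.195, with CD3+CD28+TSP1 -0.010 and with TSP1 -0.307. The part of this deviation in these differences was not tested. HES1 at 1 h was 10.8 CPM in untreated WT and 57.2 CPM in untreated CD47- cells, and between 9.03 and 12.9 CPM and between 45.9 and 57.2 CPM over all libraries of that time.

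The rest of the pathway was then described by role, with a list of 71 genes that includes the 7. Of these, 65 were tested between the lines, 20 were higher in CD47- cells, 9 lower and 36 not called, close to the 40.4% of all genes called in this comparison. The median log2 fold change was 0.18, against -0.01 over all genes. Apart from the 7 genes, 16 of 58 tested were higher and 8 lower. Among the ligands 4 of 5 tested genes were higher and none lower, though 2 of the 4, DLL1 and DLL4, were at 0.538 and 0.391 CPM in WT with as few as 4 and 3 counts in a library and so passed the low-count filter mainly through their CD47- libraries, and among target genes 7 of 15 were higher and 3 lower. In the other roles 1 of 4 receptors was higher and 1 lower, 4 of 13 genes of processing and sugar modification were higher and 1 lower, 1 of 8 genes of the nuclear complex was higher and 1 lower, 1 of 9 corepressors was higher and 2 lower, and 2 of 11 genes of inhibition and turnover were higher and 1 lower.

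Outside the 7, the 5 genes furthest above their WT level in CD47- cells came from several roles of the list. CR2, complement receptor 2 and a NOTCH-responsive gene of B cells, was 3.55 ± 1.79 CPM (SD, n = 10) in WT and 38.8 ± 11.9 CPM (SD, n = 10) in CD47- cells, a log2 difference of 3.46 (SE 0.268, adjusted p = 4.68e-10). The ligand DLL1 averaged 0.538 ± 0.194 CPM in WT against 5.23 ± 0.813 CPM in CD47- cells (3.26, SE 0.181, adjusted p = 1.48e-12) and the ligand JAG1 at 1.48 ± 0.444 and 11.3 ± 1.07 CPM (2.92, SE 0.14, adjusted p = 1.37e-13). MAML3, a coactivator of the nuclear complex, differed by 2.76 (SE 0.169, adjusted p = 7.43e-12), and LFNG, a Fringe glycosyltransferase that modifies NOTCH receptors, by 2.64 (SE 0.24, adjusted p = 6.54e-09). DLL1, MAML3 and LFNG were under 1 CPM in WT, with as few as 4 to 9 counts in a library, and reached the level required for naming a gene only through their CD47- libraries.

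The 5 genes furthest below their WT level included 3 further target genes. PTCRA, the pre-T cell receptor alpha chain, was 10.7 ± 2.52 CPM (SD, n = 10) in WT and 1.26 ± 0.380 CPM (SD, n = 10) in CD47- cells, a log2 difference of -3.07 (SE 0.18, adjusted p = 3.68e-12). IL7R, the interleukin 7 receptor, differed by -2.44 (SE 0.273, adjusted p = 1.71e-07), and LZTFL1, a ciliary trafficking protein, by -0.81 (SE 0.24, adjusted p = 0.0091), a call lost at a like size in the 6 activated pairs alone (-0.76, adjusted p = 0.0775) and the 4 unactivated pairs alone (-0.86, adjusted p = 0.15). ADAM10, a protease that cuts ligand-bound NOTCH, averaged 278 ± 64.1 CPM in WT against 101 ± 10.0 CPM in CD47- cells (-1.47, SE 0.113, adjusted p = 4.16e-10). DTX3L, a ubiquitin ligase of the Deltex family, differed by -0.84 (SE 0.106, adjusted p = 1.05e-06). Target genes of the pathway went in both directions, with HES1 and CR2 higher and PTCRA and IL7R lower in CD47- cells.

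**Figure D5:**
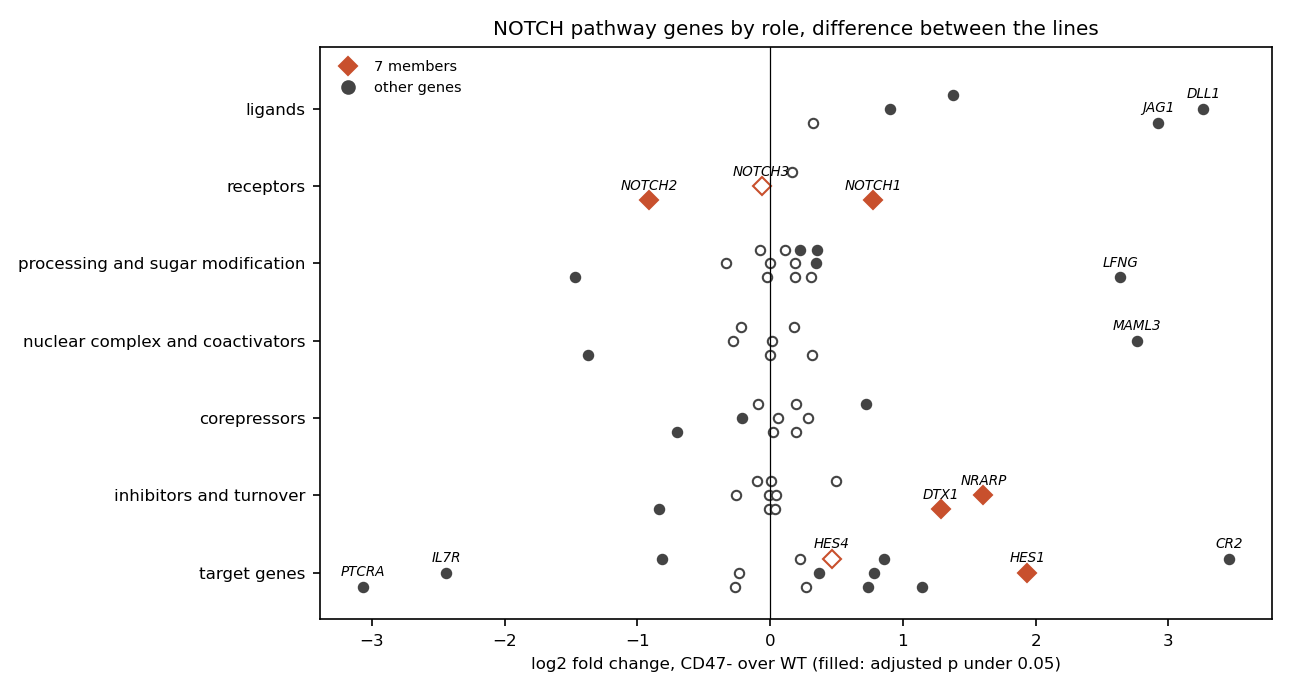
Log2 fold change between the lines (CD47- over WT) of the 65 tested genes of the pathway list by role, 1 point per gene, the 7 genes as red diamonds, filled where the adjusted p was under 0.05. The 5 ligands lie at or right of 0.32, while the target genes spread from -3.07 for PTCRA to 3.46 for CR2.

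Over time, 17 of the 65 pathway genes were higher and 14 lower at 6 h than at 1 h in WT cells, and 22 were higher and 16 lower in CD47- cells. These shares lie near the 50.5% and 53% of all genes called, and the median log2 change was -0.04 and 0.10. For the difference between the lines in this change, 3 pathway genes were called higher and 13 lower, HES1 among the latter, beside 16.6% of all genes, of which 1055 were higher and 1659 lower. The median of the pathway genes there was 0.12, opposite in sign to most of the calls.

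The genes whose course over the 20 libraries was most like each of the 7 were named by Pearson's r of log2(CPM + 1) after the mean of each line was subtracted, among 14086 other genes. NOTCH1 and NOTCH3 were among the nearest to each other, at r = 0.95, and NOTCH1 was nearest to RAVER1 (0.96). The nearest gene was ABI3 for DTX1 (0.98), followed by PMEPA1 and ZNF512B (both 0.97), and TSC22D4 for HES4 (0.95), followed by RABAC1 and ZDHHC8 (both 0.945). NCK2 (0.94), PSRC1 and FAM72B (both 0.90) were nearest to HES1, and USP31 (0.93), RSKR (0.91) and AL035071.1 (0.90) to NOTCH2. NOTCH3 also had HCFC1 (0.94) and FOXK1 (0.93), NOTCH1 had CLPTM1 (0.95), and NRARP, with few counts, reached at most 0.76 with EMID1, before MLF2 (0.75) and ZNF646 (0.74). Transcripts of RAVER1 and ABI3 hold 63.6% and 61.9% G and C, TSC22D4 65.4%, PMEPA1 52.1%, NCK2 55.6% and USP31 45.9%. Libraries share treatments and time points, so these values describe the 20 libraries and were not tested.

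Other genes are annotated within some of these loci, and the strand setting of the counting is not given in the sources used here. NOTCH1 overlaps MIR4673 and a long noncoding RNA on the opposite strand, NOTCH2 and NRARP each overlap a long noncoding RNA on the opposite strand, and NOTCH3 overlaps MIR6795. Reads of these partners may be included in the values above.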

How the data were processed

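Samples were grouped by the genotype label, with 10 libraries per line. Per the submitters' processing notes and the methods of the study, trimming was by Cutadapt 1.18, alignment to GRCh38 by STAR 2.4.2a and quantification by RSEM 1.3.3 with GENCODE version 36. The authors deposited expected counts of 60719 genes and 232184 isoforms, unscaled. The study also used ComBat for a batch that is not named, which was not repeated. Each table holds 2 further columns of no sample analysed here, which were not used.

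Expected counts were rounded for edgeR 4.0.16 and DESeq2 1.42.0 and left as they were for limma 3.58.1 (R 4.3.3). The low-count filter was filterByExpr with the 2 lines as groups (a count of 10 and a total of 15). After TMM scaling, genes were tested by the quasi-likelihood method of edgeR, with Benjamini-Hochberg adjustment over all genes tested and a threshold of 0.05. The line comparison used 20 libraries without covariates. Time and treatment comparisons came from 1 model of all libraries, with treatment and time terms nested in line, so they share libraries. Isoform shares were compared by permutation with 100000 resamples over 6 genes, and differences within pairs used log2(CPM + 0.5). Lengths were found for 229321 isoforms, holding at least 99.07% of counts. Positions came from GENCODE version 44, and GC content was found for 16302 of 16327 tested genes.

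The genes, lists and tests were chosen with earlier results of these data known. Named outside the 7 were up to 5 pathway genes in each direction with the largest fold change among those called whose average log2(CPM + 1) reached 1, and the 3 genes closest in course to each of the 7. The alternatives comprised DESeq2, voom (limma, quantile-normalized), scaling by the upper quartile, all genes unfiltered, a minimum of 1 CPM in every library, the 10 matched pairs as a block, a time term, subsets of the pairs, NOTCH2 summed with NOTCH2NL genes, 1 line alone, isoform counts per length, each library left out in turn and, added after the data had been seen, a GC offset (lowess, span 0.3). Depth was 16107921 to 31737616 counts per library.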

Additional observations from a re-analysis of the deposited data

Results flagged for a closer look

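NOTCH3 in the CD47- library CD3+CD28+TSP1 3 h was 61.2 CPM, far above the next highest of the 10 CD47- libraries at 33.4 CPM, a gap of 0.619 of the whole range, above the 95% critical value of Dixon's test for 10 values. This was 1 of 14 sets of 10 values examined, of which chance picks out about 1 in 20. The same library had the smallest total and the highest NOTCH1 value.

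HES1 passed the test of a difference between the lines in its change from 1 h to 6 h. The difference in log2 change was -0.900 in the interaction test of edgeR (adjusted p = 0.0261), with a fall of all 3 values at 6 h below all 4 at 1 h in CD47- cells and overlapping values in WT cells. The call was lost without any of 7 of the 20 libraries, with values from -1.07 to -0.68 and adjusted p-values up to 0.105 over all 20.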

How the results depend on the processing

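Over 419 values of single genes or isoform shares under other settings, 379 kept their direction and their side of the threshold, 24 newly passed, 11 no longer passed and 5 changed sign. With 1 library left out, 959 of 1020 did so, 18 newly passed, 31 no longer passed and 12 changed sign. HES1, NOTCH2 and NRARP were called between the lines under every setting that tested them, and DTX1 under all but the 4 unactivated pairs. The 10 matched pairs as a replicate block left the 5 line calls in place and added HES4 (0.49, adjusted p = 0.0234); this block matches treatment and time, not cultures. The cause of the changes below was not tested.

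NOTCH3 between the lines changed sign with the 6 activated pairs alone (0.19) and at 3 h alone (0.77), and ranged from -0.25 to 0.012 with 1 library left out. With the GC offset HES4 in CD47- cells changed sign at 6 h (-0.066) and 3 h (-0.54). HES1 at 6 h in WT ranged from -0.26 to 0.12 with 1 library left out. The leading isoform share of NOTCH3 was -1.36 percentage points per length, and with 1 library left out it ranged from -0.0350 to 1.61, and that of NOTCH1 from -0.367 to 0.419. The difference in the leading DTX1 share ranged from -4.18 to -2.28 percentage points with 1 library left out.

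Between the lines, the 4 unactivated pairs alone called 3 of the 7 genes and 2706 of all genes, and the 6 activated pairs 4067. At 3 h in WT, DESeq2, the 1 CPM filter and the GC offset called 2 of the 7 genes and no low-count filter 3. With 1 library left out 0 to 2 were called there, beside 4204 to 7099 of all genes. At 6 h in WT 1 to 4 were called with 1 library left out, beside 6951 to 9404 of all genes. For the other settings at 3 h in WT and in the interaction, counts over all genes are not given here. In the interaction, DESeq2, upper-quartile factors, no filter, the 1 CPM filter and the GC offset called 2, and 1 library left out gave 0 to 2 of the 7 and 1459 to 4273 of all genes, the highest without CD47- CD3+CD28+TSP1 3 h. For CD3+CD28+TSP1 against TSP1 in WT, all genes called were 54 with DESeq2, 28 with voom, 201 without the filter, 7 with the GC offset, 5 with 1 line alone and 0 to 42 with 1 library left out. Without the filter, CD3+CD28+TSP1 against TSP1 in CD47- cells gave 2 of the 7 and 538 of all genes, and against CD3+CD28 it gave 1 and 84 in WT and 2 and 401 in CD47- cells. DESeq2 gave 1 gene against CD3+CD28 in WT, and 1 library left out gave 0 to 1 in CD47- cells. Of the 7 genes NRARP had the fewest counts per library, 9 to 64, and how far depth limited each gene was not tested.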
